A study of Mus musculus with 2 samples.

Results

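The 10 genes described here encode guanylate binding proteins (GBPs: Gbp2, Gbp3, Gbp5, Gbp6 and Gbp7) and immunity-related GTPases (IRGs: Irgm1, Irgm2, Igtp, Iigp1 and Ifi47). They were chosen by name from these families and make up 10 of the 54446 genes with a count entry. They were measured by RNA sequencing in bone marrow derived macrophages of C57BL/6 mice, grown from marrow progenitors in culture. The control library came from macrophages given no treatment and the other library from macrophages given IL-36 gamma, an interleukin-1 type cytokine. No other agent or allele is named for either group. The dose, the duration of exposure, the sex and age of the mice and any pooling of animals are not stated in the labels. With 1 library in each group, replicate spread could not be measured, and no p-values are printed.

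GBPs and IRGs are large GTPases that cells make in response to interferons, most strongly interferon gamma. They gather on the vacuoles and membranes of intracellular bacteria and parasites, where they help to break those membranes open and expose bacterial products to the caspase-11 and AIM2 inflammasomes. The Irgm proteins (Irgm1, Irgm2 and Igtp, also called Irgm3) guard the cell's own membranes and keep effector IRGs such as Iigp1 (Irga6) inactive there. Their genes lie in tandem arrays of close copies. Whether macrophages given IL-36 gamma carry more of these transcripts is the question the comparison addresses for this family.

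Counts assigned to genes came to 17426367 in the control and 17267900 after IL-36 gamma. Each ratio divides the IL-36 gamma count by the control count after TMM scaling, which evens out library size and composition, and CPM are scaled counts per 1000000. Each ratio has a 95% exact (Clopper-Pearson) interval that covers counting error only. A gene is called higher when its scaled count is at least 25% above the control with the whole interval above a ratio of 1, and lower when its ratio is at most 0.8 with the whole interval below 1. This rule of size is not a test. Genes were measured when their mean count was at least 10, which held for 14379 genes and for all 10 GTPase genes. The macrophage genes Adgre1, Csf1r, Cd68 and Lyz2 were abundant in both libraries, each with at least 19586 counts. Of 11 markers of T and NK cells, 8 had 0 counts in both, including Cd3e, Cd3g, Cd8a, Nkg7 and Ncr1. Because RNA was taken from whole cultures, more cells with these transcripts and more transcripts per cell cannot be told apart.

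Genes were sorted by level per length (CPM per kilobase of exon not shared with another gene on the same strand). The 3 tiers named here for the control library are a description, and intervals within a tier need not overlap. Irgm2 stood first at 13.6 CPM per kilobase (95% exact Poisson interval 12.7 to 14.6), followed by Igtp at 11.4 (10.3 to 12.6), Ifi47 at 10.9 (9.96 to 11.98) and Irgm1 at 8.94 (8.37 to 9.53). Within this tier only the intervals of Igtp and Ifi47 overlapped. Gbp2 at 5.12 (4.48 to 5.83) and Gbp3 at 2.33 (1.95 to 2.75) made a middle tier, and their intervals did not overlap. Gbp5 at 1.04, Gbp7 at 0.882, Iigp1 at 0.647 and Gbp6 at 0.399 were lowest, and the interval of each overlapped that of the next. Among measured protein-coding genes, 26.0% had a higher mean level per length over both libraries than Irgm2 and 90.1% a higher one than Gbp6. The length used joins the exons of all annotated transcripts of a gene, so these ranks depend on the annotation, which the intervals do not cover. By CPM without length, Irgm1 came first in the control (51.9), and Igtp had 21.2.

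The tiers were alike in the IL-36 gamma library, but 2 pairs changed places. Igtp was there first at 16.2 CPM per kilobase (14.8 to 17.7) and Irgm2 second at 14.9 (13.98 to 15.96), with overlapping intervals. Gbp7 at 1.02 stood above Gbp5 at 0.828, again with overlapping intervals. Iigp1, whose protein attacks parasite vacuoles, was the only IRG among the 10 in the lowest tier in both libraries.

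**Figure D1:**
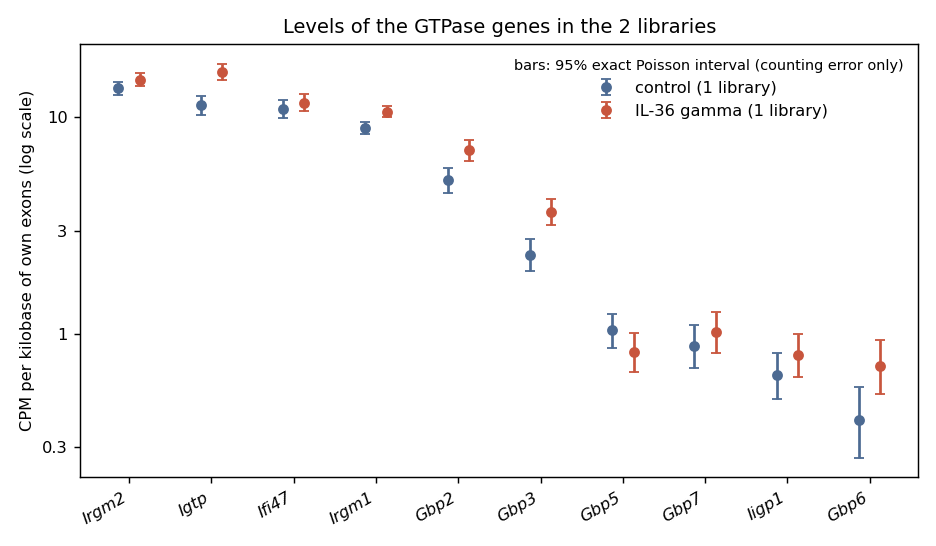
Level per length of each of the 10 genes in the control library (blue) and the IL-36 gamma library (red), in CPM per kilobase of own exons on a log axis, ordered by the control level. Points are single libraries and bars are 95% exact Poisson intervals that cover counting error only. The Igtp points are 11.4 and 16.2, and Gbp5 is the 1 gene whose IL-36 gamma point lies below its control point.

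The start regions of these genes are shown because interferon signalling acts through short elements near gene starts. The interferon-stimulated response element (ISRE), bound by ISGF3 and interferon regulatory factors, was searched on both strands as its core, GAAA, any 2 bases and GAAA again. The gamma-activated sequence (GAS), an element of interferon gamma signalling, was searched as TTCNNNGAA, which reads the same on both strands. The NF-kB consensus was searched by its usual 10-base form on both strands. Windows of 300 bases, 250 before to 50 after each start, came from RefSeq on GRCm38.p6 (the assembly of mm10). Those of 8 of the 10 genes were used. Gbp6 and Iigp1 were left out of the search, which does not show that RefSeq lacks a window for them. The counts of matches below therefore cover the 8 genes only. A match describes letters and not a bound site.

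An ISRE core stood in the window of 7 of the 8 genes (Gbp2, Gbp3, Gbp5, Gbp7, Irgm1, Irgm2 and Igtp), against 3.99% of 27025 genes with a window and 3.44% of 32851 windows. A GAS core stood in that of 4 (Gbp5, Gbp7, Irgm2 and Igtp), against 9.55% of genes. These 4 held both cores, against 0.54% of genes. The NF-kB consensus stood in the windows of Gbp2 and Gbp5, against 9.55% of genes. No match to any of the 3 was found in the window of Ifi47, which says only that these letters are not in those 300 bases. The sites below are 30 bases long, read 5′ to 3′ along the gene, with the matched letters in capitals (GAS core first, then ISRE core, where both are shown).
Gbp2 (chr3:142620594-142620623, plus strand): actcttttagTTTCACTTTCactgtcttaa
Gbp3 (chr3:142559992-142560021, plus strand): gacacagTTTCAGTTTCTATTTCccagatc
Gbp5 (chr3:142496759-142496788, plus strand): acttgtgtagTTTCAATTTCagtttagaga
Gbp7 (chr3:142530273-142530302, plus strand): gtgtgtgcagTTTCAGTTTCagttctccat
Irgm1 (chr11:48871428-48871457, minus strand): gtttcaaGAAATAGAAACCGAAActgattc
Irgm2 (chr11:58214898-58214927, plus strand): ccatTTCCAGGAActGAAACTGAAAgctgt
Igtp (chr11:58199507-58199536, plus strand): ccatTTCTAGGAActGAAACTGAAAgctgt
Tgtp2 (chr11:49064268-49064297, minus strand): ccatTTCCAGGAAtcGAAACCGAAAcctac
Gm12185 (chr11:48927243-48927272, minus strand): ccatTTCCAGGAAtaGAAAGTGAAAcctac

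In the 4 GBP windows of chromosome 3 the core lay on the strand opposite to the gene, and in the 3 IRG windows with a core it lay on the strand of the gene. Gbp3 and Irgm1 each had 2 overlapping cores, 45 to 30 and 30 to 15 bases before the start. The Igtp and Irgm2 sites have the GAS core, 2 further bases and the ISRE core, and so do the IRG genes Tgtp1, Tgtp2 and Gm12185, which were not among the 10. In Gbp5 the ISRE core was farther out, 165 to 156 bases before the start, with an NF-kB consensus at 77 to 68 bases and GAS cores at 245 to 237 and 52 to 44 bases. The longer stretches of the genes with the most different ratios on chromosome 3 and of the neighbours Igtp and Irgm2 follow, each ending before the RefSeq start or before the first exonic base of GENCODE M21. The RefSeq starts of Gbp2, Gbp3, Gbp5, Irgm1 and Irgm2 lie inside the longer GENCODE gene spans. The ISRE cores of Gbp2 and Irgm1 therefore fall within the first exon of a GENCODE transcript that starts farther upstream. Capitals mark the cores and the NF-kB consensus.
Gbp3 (chr3:142559794-142560025, plus strand): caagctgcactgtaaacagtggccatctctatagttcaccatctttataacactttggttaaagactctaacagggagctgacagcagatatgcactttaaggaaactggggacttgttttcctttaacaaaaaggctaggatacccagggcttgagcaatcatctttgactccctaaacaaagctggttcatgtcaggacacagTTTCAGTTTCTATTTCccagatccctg
Gbp5 (chr3:142496684-142496899, plus strand): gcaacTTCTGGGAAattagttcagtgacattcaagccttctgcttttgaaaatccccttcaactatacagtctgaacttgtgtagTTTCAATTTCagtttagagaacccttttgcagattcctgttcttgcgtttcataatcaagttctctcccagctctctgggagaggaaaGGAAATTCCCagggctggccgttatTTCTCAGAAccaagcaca
Igtp (chr11:58199306-58199555, plus strand): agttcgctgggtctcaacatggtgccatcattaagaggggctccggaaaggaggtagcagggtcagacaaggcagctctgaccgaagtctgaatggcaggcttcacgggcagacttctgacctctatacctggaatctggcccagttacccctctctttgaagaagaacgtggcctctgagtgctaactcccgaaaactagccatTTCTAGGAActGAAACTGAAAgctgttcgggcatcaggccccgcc
Irgm2 (chr11:58214727-58214976, plus strand): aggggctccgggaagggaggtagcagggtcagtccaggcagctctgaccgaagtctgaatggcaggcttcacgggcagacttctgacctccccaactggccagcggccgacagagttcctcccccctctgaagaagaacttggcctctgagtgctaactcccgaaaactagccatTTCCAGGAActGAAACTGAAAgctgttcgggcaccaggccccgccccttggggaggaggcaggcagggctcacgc

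Over 80 bases around the GAS core, aligned on it without gaps, 77 were identical between Igtp and Irgm2.

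**Figure D2:**
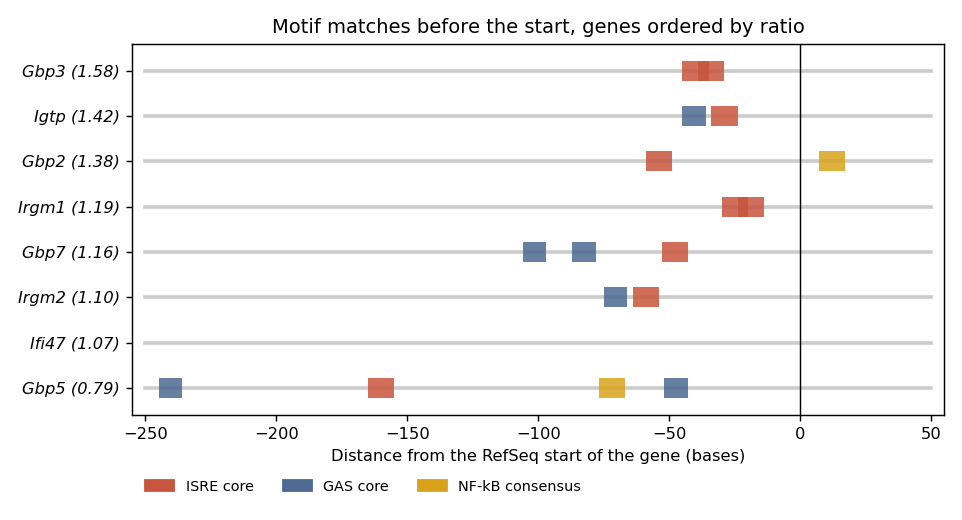
Matches to the ISRE core (red), the GAS core (blue) and the NF-kB consensus (yellow) in the 300-base windows of 8 genes, by distance in bases from the RefSeq start, with genes ordered by their ratio (in brackets). The ISRE core of Gbp5, the gene with the lowest ratio, begins 165 bases before the start. Those of the other 6 genes with one begin 64 to 30 bases before it. Of these, Gbp2, Gbp3 and Igtp were called higher and Gbp7, Irgm1 and Irgm2 neither.

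Of the 10 genes, 4 were higher after IL-36 gamma (Gbp2, Gbp3, Gbp6 and Igtp) and 0 were lower, against 6.59% of all measured genes higher and 8.35% lower. With scaling by total counts the split of all genes was 4.28% and 11.3%, and the same count of 4 and 0 was found for the GTPases. Among the 8467 genes within the range of the 10 in mean count, 7.16% were higher and 9.89% lower. By the interval alone, 5 of the 10 lay wholly above 1 (the 4 and Irgm1) and 0 wholly below, against 20.2% and 16.5% of all measured genes. In the same range of mean count those shares were 14.8% and 16.4%. The median log2 ratio of the 10 was 0.27, and that of all measured genes was 0.01. Of the 10, 0 had an interval wholly beyond 2-fold, against 0.0765% of all measured genes upward and 0.0904% downward, and 0.0472% and 0.0591% in that range.

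**Figure D3:**
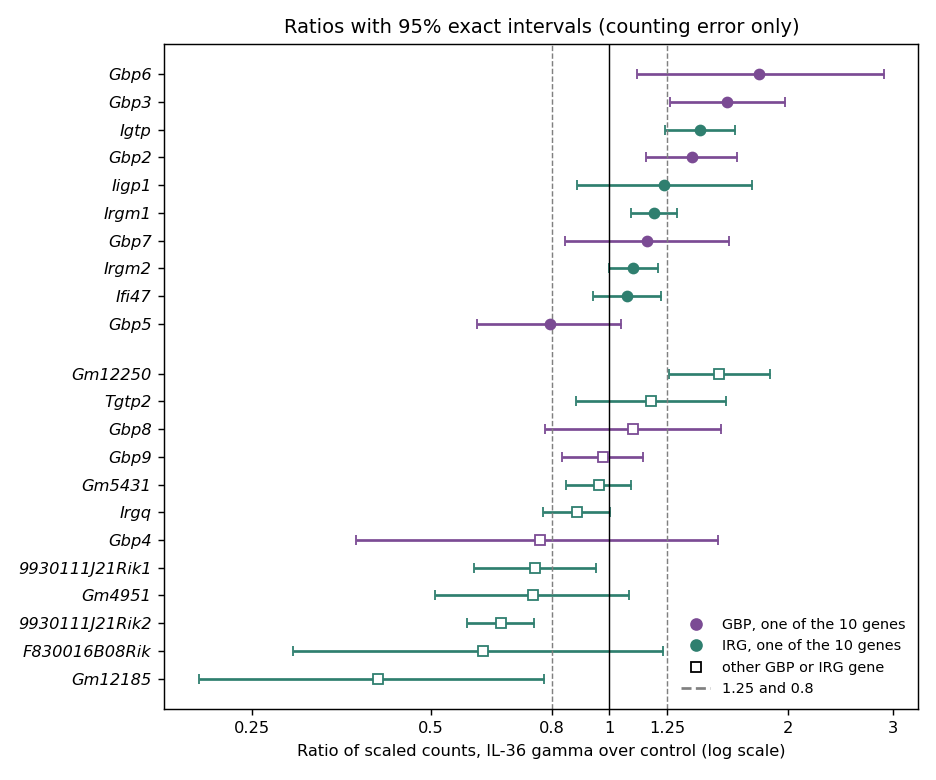
Ratio of scaled counts, IL-36 gamma over control, on a log axis for the 10 genes (filled circles) and the other measured GBP and IRG genes (open squares), with 95% exact intervals that cover counting error only. Dashed lines mark the bounds for higher and lower. The 10 genes run from 0.794 for Gbp5 to 1.78 for Gbp6, and Gm12185 has the lowest ratio of all genes drawn, 0.408.

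Among the GBPs of chromosome 3, which form 1 tandem array, Gbp2 and Gbp3 were higher and Gbp5 and Gbp7 were neither. Gbp2 (ENSMUSG00000028270, chromosome 3, 142620602 to 142638008, plus strand), a membrane-binding GTPase that carries a lipid anchor signal, had 229 counts (12.9 CPM) in the control and 300 (17.7 CPM) after IL-36 gamma. Its ratio was 1.38 (1.15 to 1.64). Gbp3 (ENSMUSG00000028268, chromosome 3, 142560026 to 142573209, plus strand), a close copy of Gbp7, had 135 counts (7.596 CPM) and 203 (11.99 CPM), a ratio of 1.58 (1.26 to 1.98). These 2 genes held an ISRE core close to the start and no GAS core. So did Irgm1, which was neither, while Igtp, which was higher, held a GAS core.

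Gbp5 (ENSMUSG00000105504, chromosome 3, 142493978 to 142522344, plus strand), which carries a lipid anchor signal and has been linked to the NLRP3 inflammasome, was the 1 gene of the 10 with a ratio below 1. Its counts were 123 (6.92 CPM) in the control and 93 (5.49 CPM) after IL-36 gamma. The ratio of 0.794 had an interval (0.60 to 1.05) that included 1. Gbp7 (ENSMUSG00000040253, chromosome 3, 142530342 to 142550149, plus strand), which has been linked to assembly of the phagocyte NADPH oxidase, had 78 and 86 counts, a ratio of 1.16 (0.842 to 1.59). Gbp5 and Gbp7 had the fewest counts of the array's 4 measured genes. The fifth gene of the array, Gbp2b (also called Gbp1), had 0 counts in both libraries. The floor of 3 counts, a 1-sided bound unlike the 2-sided intervals above, is 0.169 CPM in the control and 0.177 CPM after IL-36 gamma.

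Quotients of counts within the array need no scaling. Those against Gbp5 were taken after its ratio was seen, and their intervals cover counting error only. For each count of Gbp5 there were 1.10 counts of Gbp3 in the control (0.853 to 1.41) and 2.18 after IL-36 gamma (1.70 to 2.82). For Gbp2 the same quotient was 1.86 (1.49 to 2.34) and 3.23 (2.55 to 4.12). The intervals of the Gbp3 and of the Gbp2 quotient did not overlap between the libraries. Gbp5 had the lowest ratio of the 10 and Gbp2 and Gbp3 were called higher, so this follows largely from the choice of pairs. How many other pairs of genes do not overlap was not counted. Counts of Gbp3 for each count of Gbp7 were 1.73 (1.30 to 2.32) and 2.36 (1.83 to 3.07), which overlapped. As a share of the counts over the 5 GBP genes, Gbp5 went from 20.7% (95% exact binomial interval 17.5 to 24.2) to 12.7% (10.4 to 15.3), and Gbp3 from 22.7% (19.4 to 26.3) to 27.7% (24.5 to 31.1). The intervals of the Gbp3 share overlapped, and those of the Gbp5 share, which rests on the same counts, did not.

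**Figure D4:**
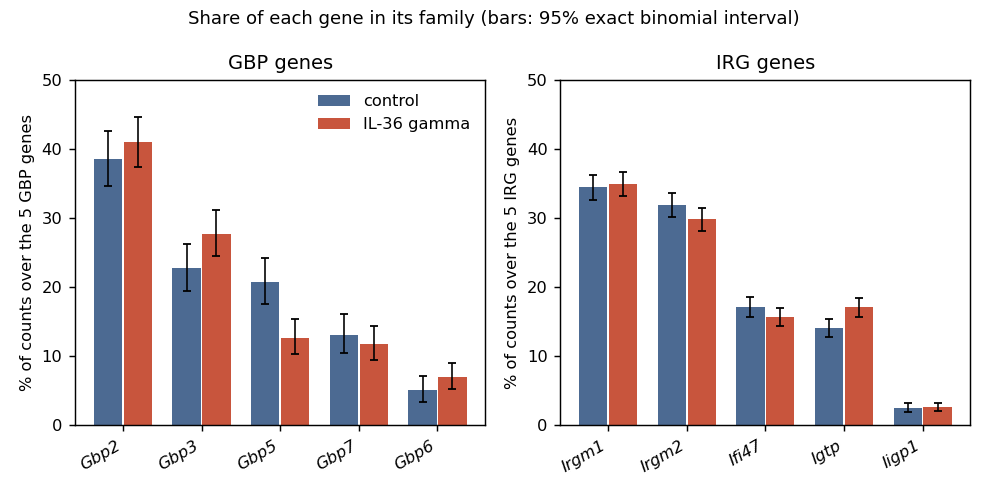
Share of each gene in the counts summed over the 5 GBP genes (left) and the 5 IRG genes (right), in percent, in the control (blue) and IL-36 gamma (red) libraries, with 95% exact binomial intervals. The Gbp5 bar goes from 20.7% to 12.7% with intervals that do not overlap, and the Igtp bar from 14.1% to 17.1%.

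Gbp6 (ENSMUSG00000104713, chromosome 5, 105270702 to 105293698, minus strand) belongs to a separate array on chromosome 5. It had the fewest counts of the 10, 30 (1.69 CPM) and 51 (3.01 CPM), and the highest ratio, 1.78 (1.12 to 2.90), with the widest interval. The call of Gbp6 was lost with a 99% interval (0.972 to 3.37). Its value is also the least certain by sequence: 70.7% of its 50-base words occur in transcripts of other genes, mostly the read-through gene Gm43302 and Gbp10, and 1726 of its 5954 exonic bases lie inside exons of Gm43302. The deposited tables keep reads that align more than once, or to several genes, in rows of their own that name no gene. Gbp10 and Gm43302 had 0 counts in both libraries. Gbp10 shares 84.1% of its 50-base words with other genes. Reads from shared words or shared exons can fall into those rows, so these counts of 0 do not show that the transcripts are absent. For the other 9 genes the share of 50-base words found in other genes was at most 12.7%, in Gbp7, of which most were shared with the pseudogene Gm43802.

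Counts summed over the 5 GBP genes were 595 in the control and 733 after IL-36 gamma. Their ratio of 1.29 (1.16 to 1.44) met the rule of size. With scaling by total counts this sum had a ratio of 1.24 (1.11 to 1.39) and did not meet it. Gbp2 and Gbp3 together supplied most of the summed counts in both libraries.

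Among the Irgm proteins, which protect host membranes, Igtp was higher and Irgm1 and Irgm2 were not. Igtp (ENSMUSG00000078853, chromosome 11, 58199556 to 58207591, plus strand), needed for resistance to Toxoplasma in mice, had 377 counts (21.2 CPM) and 511 (30.2 CPM), a ratio of 1.42 (1.24 to 1.63). Irgm2 (ENSMUSG00000069874, chromosome 11, 58199618 to 58222782, plus strand), a Golgi-associated regulator that restrains caspase-11, had 854 counts (48.1 CPM) and 893 (52.7 CPM), a ratio of 1.10 (0.998 to 1.21). The Igtp and Irgm2 gene models overlap in 162 exonic bases on the same strand, and reads wholly within them match both.

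For each count of Irgm2 there were 0.441 counts of Igtp in the control (0.39 to 0.499) and 0.572 after IL-36 gamma (0.512 to 0.639), without overlap. For each count of Irgm1 there were 0.408 (0.361 to 0.461) and 0.489 (0.439 to 0.544), which overlapped. For each count of Ifi47 there were 0.821 (0.715 to 0.943) and 1.09 (0.961 to 1.24), without overlap. These pairs were also taken after the values were seen. Around the GAS core, 77 of 80 aligned bases were identical between Igtp and Irgm2, as given above. That core lies 45 to 37 bases before the start in Igtp and 75 to 67 in Irgm2. The aligned bases thus lie at different distances from the 2 starts. Irgm1 (ENSMUSG00000046879, chromosome 11, 48861968 to 48871683, minus strand), which is needed for control of mycobacteria in mice, had the most counts of the 10. It had 923 (51.9 CPM) and 1046 (61.8 CPM), a ratio of 1.19 (1.09 to 1.30), above 1 over its whole interval but short of the bound for higher.

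The IRGs outside the Irgm group were neither higher nor lower. Ifi47 (ENSMUSG00000078920, chromosome 11, 49076587 to 49096974, plus strand), also called Irgd, had 459 counts (25.8 CPM) and 468 (27.6 CPM), a ratio of 1.07 (0.939 to 1.22). Its interval ends below the bound for higher. Iigp1 (ENSMUSG00000054072, chromosome 18) had 67 and 79 counts, a ratio of 1.24 (0.882 to 1.74), and at these counts a difference of 25% could not be told from none. Summed over the 5 IRG genes there were 2680 and 2997 counts, a ratio of 1.17 (1.11 to 1.24), whose interval also ends below that bound. Igtp went from 14.1% (12.8 to 15.4) to 17.1% (15.7 to 18.4) of these counts, while Irgm1 made up 34.4% and 34.9%.

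The rest of the GBP and IRG families differed in both directions. Of 18 other listed GBP and IRG genes, 12 were measured, 1 was higher and 3 were lower. Over all 22 measured genes of both families, 5 were higher and 3 lower, against 6.59% and 8.35% of all measured genes. The median log2 ratio of the 22 was 0.11. The higher one was Gm12250, whose RefSeq synonym is Irgb10, an IRG known to break bacterial membranes together with GBPs. It had 179 and 261 counts, a ratio of 1.53 (1.26 to 1.86), and no 50-base word of its transcript occurs in another gene. Its gene model in GENCODE M21 is a processed pseudogene, while RefSeq lists it as protein-coding.

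The 3 lower genes lie between Irgm1 and Ifi47 on chromosome 11. These were 9930111J21Rik2 (611 and 382 counts, ratio 0.656, 0.576 to 0.747), 9930111J21Rik1 (175 and 125, ratio 0.75, 0.591 to 0.949) and Gm12185 (36 and 14, ratio 0.408, 0.203 to 0.776). Of the 50-base words of the first, 59.8% occur in other genes, and of the second 83.2%, mainly in each other. The split of reads between them is therefore uncertain. Tgtp2 (Irgb6, which loads onto parasite vacuoles) in the same array had 92 and 103 counts, a ratio of 1.18 (0.878 to 1.57), and shares 86.6% of its words with other genes, nearly all with Tgtp1 (4 and 0 counts). The GAS and ISRE cores set 2 bases apart stood in genes with ratios on both sides of 1: Igtp (1.42), Irgm2 (1.10), Tgtp2 (1.18) and Gm12185 (0.408).

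Other GBP genes of chromosome 5 were neither. Gbp9 had 335 and 311 counts (ratio 0.974, 0.832 to 1.14), Gbp8 70 and 73 (1.09, 0.778 to 1.54) and Gbp4 22 and 16 (0.763, 0.375 to 1.52). Of 7 measured genes of other interferon-inducible large GTPases and the vacuole-coating ligase Rnf213, 0 were higher and 1 was lower. The shares of all measured genes were 6.59% and 8.35%. Rnf213 had 9038 counts in the control and 6646 after IL-36 gamma (ratio 0.772, 0.748 to 0.797). The GTPase gene Mx1 (838 and 657 counts, ratio 0.823, 0.742 to 0.912) and Gm8995, a transcribed pseudogene in GENCODE M21 of the very large GTPase family (2605 and 2073, ratio 0.835, 0.788 to 0.885) lay below 1 over their whole interval.

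Genes around the arrays were read as well, taking the 5 nearest measured protein-coding genes outside these families on each side and any within. Of 52 such genes, 2 were higher and 5 lower, against 6.59% and 8.35% of all measured genes. Their ratios ran from 0.595 to 2.27, with a median of 0.953. Around Igtp and Irgm2, 0 of 10 were called, the nearest being Mrpl22 (ratio 1.21, 0.994 to 1.46). On chromosome 3 the higher ones were Kyat3 (12 and 26 counts, ratio 2.27, 1.11 to 4.95) and Tspan5 (174 and 232 counts, ratio 1.40, 1.14 to 1.71), the second of which lies 3586 kilobases away. Around Gbp6, 4 of 10 were lower, named here after their values were seen: Spp1 (osteopontin, 69599 and 45611 counts, ratio 0.688), Pkd2 (0.714), Zfp326 (0.724) and Zfp644 (0.74). The fifth lower gene was Ndst1 near Iigp1 (869 and 493 counts, ratio 0.595), also named after its value was seen. Psme2b, which lies inside the array of Irgm1, had 328 and 379 counts, a ratio of 1.21 (1.04 to 1.41).

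Transcripts of the listed interferons were at or near 0. Of the interferon alpha genes the list holds Ifna1, Ifna2 and Ifna4, and others were not looked up. Of 13 listed genes of interferons and of cytokines that call for them, 8 had 0 counts in both libraries, among them Ifng and Ifnb1. The same floor of 3 counts for these is 0.169 and 0.177 CPM. Ifnk had 4 and 0 counts. The only measured ligand past the rule was Il12b, which encodes a subunit of IL-12, with 26 and 3 counts (ratio 0.121, 0.0235 to 0.395). Il18, which acts with IL-12 to induce interferon gamma in lymphocytes, had 185 and 219 counts (1.24, 1.02 to 1.52).

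Of 14 receptors, kinases, STATs and their brakes, 4 were higher and 0 lower, against 6.59% and 8.35% of all measured genes. The median log2 ratio of the 14 was 0.10. Among the higher ones were the feedback inhibitor genes Socs1 (114 and 154 counts, 1.42, 1.11 to 1.82), Socs3 (918 and 1318, 1.51, 1.38 to 1.64) and Usp18 (451 and 568, 1.32, 1.17 to 1.499). The receptor genes Ifngr1 (0.881, 0.835 to 0.93) and Ifngr2 (1.07, 1.01 to 1.13) lay on opposite sides of 1.

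Of 8 interferon regulatory factors and partners, 3 were higher and 0 lower, against 6.59% and 8.35% of all measured genes. The median log2 ratio of the 8 was 0.21. Irf7, which amplifies type I interferon responses, had a ratio of 2.06 (1.97 to 2.16), Batf 1.88 (1.68 to 2.11) and the macrophage factor gene Spi1 1.32 (1.29 to 1.35). Irf1, which drives GBP genes, had 979 and 912 counts, a ratio of 0.978 (0.892 to 1.07), and its partner in macrophages Irf8 had 4787 and 4726, a ratio of 1.04 (0.995 to 1.08). The intervals of Irf1 and Irf8 end below the bound for higher.

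Of 20 listed interferon gamma targets that are not GTPases, 15 were measured, with a median log2 ratio of 0.42. Of these, 8 were higher and 0 lower, against 6.59% and 8.35% of all measured genes. The 8 were the immunoproteasome genes Psmb8 (1.45), Psmb9 (1.38) and Psmb10 (1.34), the peptide transporter gene Tap1 (1.26), the Fc receptor gene Fcgr1 (1.35), Xaf1 (1.39), Apol9b (21 and 40 counts, 1.999) and Serpina3g (36 and 132 counts, 3.85). The chemokine gene Cxcl10 had 124 and 99 counts (0.838, 0.637 to 1.10), Cxcl9 had 3 and 4, Cxcl11 had 0 in both, and Ciita, the class II regulator, had 5 and 3. Nos2, which makes nitric oxide in activated macrophages, had 19 and 29 counts (1.602, 0.868 to 3.02).

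**Figure D5:**
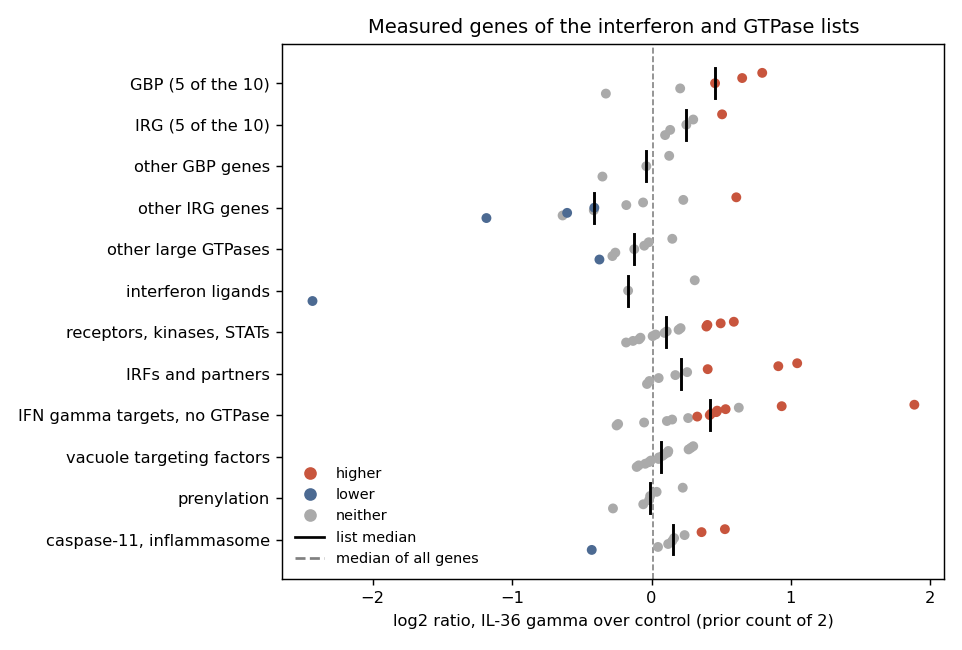
Log2 ratio (prior count of 2), IL-36 gamma over control, of the measured genes of each list, in red where higher, blue where lower and grey where neither by the rule of size. Black bars are list medians and the dashed line is the median of all measured genes, 0.01. The 5 GBP genes have a median of 0.46 and the interferon gamma targets that are not GTPases one of 0.42.

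Of 14 conjugation and ubiquitin factors that direct the GTPases to vacuoles, 0 were higher and 0 lower. The shares of all measured genes, here and for the next 2 lists, were 6.59% and 8.35%. Atg5 (1.20, 1.09 to 1.33), the LC3 relative Gabarap (1.23, 1.19 to 1.27) and the cargo receptor gene Sqstm1 (1.22, 1.19 to 1.246) lay above 1 over their whole interval. Of 6 genes for the lipid anchoring of proteins such as Gbp2 and Gbp5, 0 were higher and 0 lower. Of 8 caspase-11 and inflammasome genes, the adaptor gene Pycard (1.44, 1.35 to 1.53) and Casp1 (1.28, 1.19 to 1.39) were higher and Nlrp3 (1083 and 766 counts, 0.742, 0.676 to 0.815) was lower. Casp4, which encodes caspase-11, had 493 and 554 counts (1.18, 1.04 to 1.33), Gsdmd 1.03 (0.958 to 1.11) and Aim2 1.12 (0.992 to 1.26).

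Cell type markers also differed between the libraries. The numbers called below stand against 6.59% higher and 8.35% lower among all measured genes. Of the 8 macrophage markers, Fcgr1 (1.35) and Itgam (1.28) were higher and Mertk (0.786) was lower, and Csf1r had a ratio of 0.809 (0.795 to 0.824). The summed level of the 8 was 29439 CPM in the control and 29333 after IL-36 gamma. Most of it was Lyz2 (22763 and 22462 CPM), so this sum says little about the others. Of 10 measured neutrophil markers 6 were higher and 0 lower, and their summed level over 11 genes was 277 CPM in the control and 369 after IL-36 gamma, most of it Csf3r, S100a8 and S100a9. Of 5 measured stromal markers 3 were lower (Col1a1, Col1a2 and Col3a1), with 13.1 and 7.80 CPM over 6 genes. Itgax, the 1 measured dendritic cell marker of 7, went from 644 to 332 counts, while Siglech was at 0 and Flt3, Zbtb46, Xcr1, Clec9a and Ccr7 had at most 12 counts. The T and NK cell markers summed to 13.2 and 7.74 CPM, nearly all of it Cd4. The 5 B cell markers summed to 22.8 and 29.3 CPM, nearly all of it Cd79b. The part of these cells in the ratios of the GTPase genes was not tested.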

How the data were processed

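The authors deposited raw counts per Ensembl gene for 2 libraries. STAR 2.5.0a, HTSeq, Trim Galore 0.6.1 and FastQC 0.11.8 are named with the mm10 build, per the submitters' processing notes. Counting settings, strand and annotation release are not stated. The 5 rows naming no gene were left out, among them reads in no gene (47.2% and 46.3%) and reads aligned more than once (6.65% and 6.92%). GENCODE M21 gave symbols, exons and transcripts for 54409 gene IDs, matched without version.

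TMM factors (1.02 and 0.981) came from edgeR 4.0.16 in R 4.3.3. No edgeR or DESeq2 test was run, since a spread between replicates cannot be estimated from these libraries. List medians used a prior count of 2. The size rule was tried on simulated Poisson counts, which carry counting error only and so cannot show how it behaves with a spread between cultures. Alternatives were other scalings (DESeq2 1.42.0 size factors among them), count filters, intervals, fold bounds, prior counts, the mean, removal of lowess trends (span 0.3), thinning and protein-coding genes only. Leaving out genes with mostly shared words was added after seeing the data. Python 3.11.15 was used, with scipy 1.17.1 for intervals.

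The 10 genes, the lists and the rule were chosen with earlier results of these data known. Named were the 10 genes, other GTPase genes with a count, list members past the rule or among the 3 most abundant, and up to 3 neighbours per side. Ifnk, Ifngr2, Irf1, Cxcl9, Cxcl10, Cxcl11, Ciita, Nos2, Atg5, Casp4 and Aim2 fall outside that rule and were chosen after their values were seen. Some members of the lists are counted but not reported here by name. The erythroid markers had 9 and 1 counts over 4 genes. Intervals and floors cover counting error only, as reads without molecular identifiers are not independent molecules.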

Additional observations from a re-analysis of the deposited data

How the results depend on the processing

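No paired analysis was possible because each group has 1 library, and no library could be left out. Over the alternatives, no gene of the 10 changed direction, and 0 of them were lower under any. Ratios ran from 1.29 to 1.39 for Gbp2, 1.52 to 1.61 for Gbp3, 1.32 to 1.42 for Igtp, 1.72 to 1.87 for Gbp6 and 0.763 to 0.824 for Gbp5. The count of higher genes was 2 with a bound of 1.5 and 0 with an interval wholly beyond 2-fold. Gbp2 (1.38), Igtp (1.42) and the GBP sum (1.29) met neither, and Gbp3 (1.58) and Gbp6 (1.78) missed the second. With a 99% interval Gbp6 (1.78) was not called. With total counts the GBP sum was 1.24 and not called. Without Gbp6, whose words are mostly shared, 3 of 9 were higher. Of all measured genes, 615 were higher with total counts (27.4% of calls against 44.1%), where the count of lower genes stayed within 1.5 times. With a bound of 1.5, 312 were higher and 510 lower, and beyond 2-fold 11 and 13. Sums have no value with trends removed. Depth limits Iigp1, Gbp6 and Gbp7, which had fewer than 100 counts in each library.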
